A study of Arabidopsis thaliana with 16 samples.

Results

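The genes described here are 10 Arabidopsis thaliana genes of the endoplasmic reticulum (ER) machinery that folds glycoproteins, picked by name from the 27628 genes counted. They are the calnexins CNX1 (AT5G61790) and CNX2 (AT5G07340), the calreticulins CRT1a (AT1G56340), CRT1b (AT1G09210) and CRT3 (AT1G08450), the glucosyltransferase EBS1 (AT1G71220), the protein disulfide isomerase PDIL1-1 (AT1G21750), SDF2 (AT2G25110), and the J-domain co-chaperones ERDJ3A (AT3G08970) and ERDJ3B (AT3G62600). They were followed in seedlings of the accession Col-0, the wild type, and of the mutant fust1. Seedlings of both genotypes were 10 days old and stood at 22 °C or were given a heat shock at 37 °C, and each of the 4 combinations had 2 biological replicates in RNA-seq and in Ribo-seq, 16 libraries in all. The labels name neither the allele carried by fust1 nor the length of the heat shock. RNA-seq counted poly(A) RNA, and Ribo-seq counted footprints, the stretches of mRNA that a ribosome shields from RNase I.

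Newly made proteins that enter the ER receive a glycan whose glucose residues are then trimmed. Calnexin, which is anchored in the membrane, and calreticulin, which is soluble, are lectin chaperones that hold glycoproteins carrying a single glucose. EBS1 is the plant UDP-glucose:glycoprotein glucosyltransferase: it puts a glucose back on glycoproteins that are not yet folded, so that they bind the lectins again. A parallel route uses BiP, the ER HSP70, with J-domain partners such as ERDJ3B, which works with SDF2. In Arabidopsis, CRT3, EBS1, SDF2 and ERDJ3B are known from genetic screens as genes that the immune receptor EFR needs in order to accumulate, and CRT3 and EBS1 also as genes that retain defective forms of the brassinosteroid receptor BRI1.

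RNA-seq libraries held 9402134 to 12737375 counts and Ribo-seq libraries 6175906 to 13968790, with the shallowest pair being Col-0 at 37 °C. Levels below are CPM, read counts relative to a library size adjusted with TMM, edgeR's scaling to the typical gene. A log2 change is therefore relative to the typical gene of the same assay. Scaled to the library totals instead, the median of all genes moved with heat by -1.03 in Col-0 and -0.92 in fust1 for RNA. For footprints it moved by -1.79 and -1.67. Heat changes whose direction turned on that scale are therefore named beside each of the 10 genes. Translation efficiency (TE) is the change in footprints minus the change in RNA on the log2 scale, likewise relative to the typical gene, and it is no measure of translation per copy. A gene was called at a Benjamini-Hochberg adjusted p under 0.05 over all genes tested in edgeR's quasi-likelihood test. All 10 genes passed the filter on low counts in both assays. The seedling label was checked against marker genes. RBCS1A, a small subunit of Rubisco in green tissue, had 65896 to 236235 RNA counts, whereas the root hair genes COBL9 and EXPA7 had 1 to 16 and 0 to 39. The root gene CASP1 had 12 to 217 RNA counts and the shoot gene FAMA 17 to 173. In footprints at 22 °C, COBL9 had 179 to 284 counts. HSP101, a heat shock chaperone, went from 99 and 116 RNA counts to 224501 and 169217 in Col-0 and from 143 and 161 to 175418 and 144306 in fust1. SQN, the plant cyclophilin 40, had 80 to 511 RNA counts in the Col-0 libraries and 0 to 3 in the fust1 libraries. Its part in the genotype differences below was not tested. The gene that fust1 is named for was not analysed here. In whole seedlings, fewer cells of a type and less RNA per cell cannot be told apart.

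With heat, RNA of 6 of the 10 genes rose in Col-0 and of 5 in fust1, and none fell. Their median log2 change was 0.92 in Col-0 and 0.78 in fust1, beside -0.10 and -0.12 for all genes. Of all genes tested, 19.2% were called higher and 18.2% lower in Col-0, and 18.8% and 17.9% in fust1. Footprints were called higher for 4 genes and lower for 2 in Col-0 (27.8% and 31.8% of all genes), and higher for 6 and lower for 2 in fust1 (27.6% and 31.2%). Median footprint changes of the 10 genes were 0.20 and 0.39, beside -0.21 and -0.13 for all genes. On library totals the split turned to 3 higher and 4 lower for RNA in Col-0, 3 and 2 in fust1, and 1 and 8 for footprints in each genotype. On that scale 12155 and 10831 of all 19340 genes were called for RNA, in either direction. For footprints these counts were 15288 and 15806 of 18445. TE was called lower for 3 genes in Col-0 and 4 in fust1 and higher for none, where 21.5% and 15.7% of all genes were called lower and 15.5% and 12.5% higher. The 2 ends of the set were far apart: ERDJ3A rose 291-fold to 812-fold across genotypes and assays, while EBS1 lost nearly all of its footprints and its RNA was not called on the TMM scale.

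**Figure D1:**
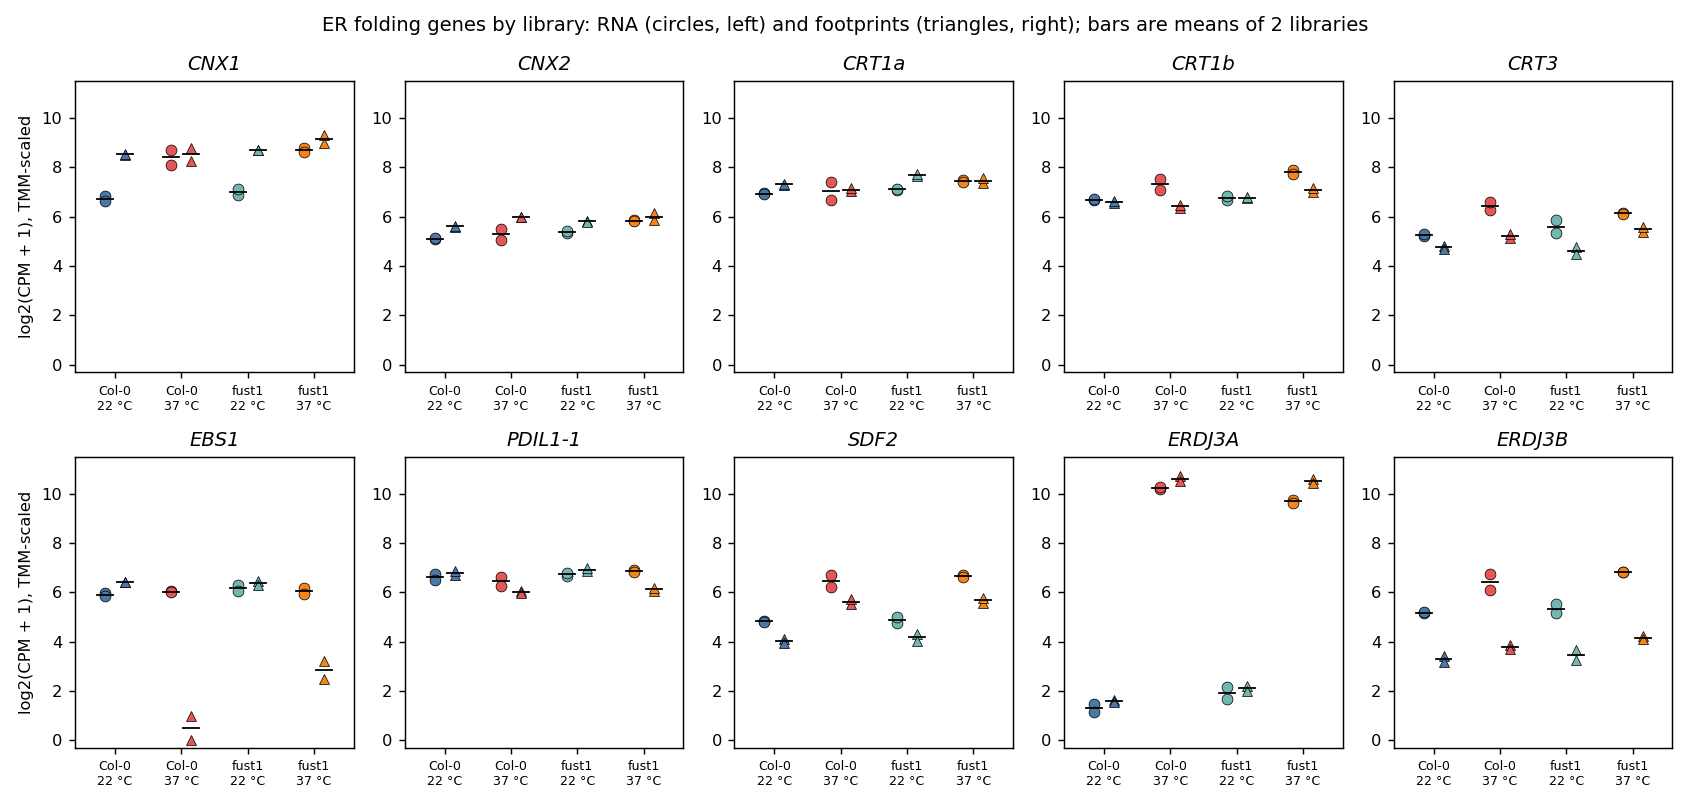
Level of each of the 10 genes in every library, as log2(CPM + 1) on the TMM scale, for RNA (circles) and footprints (triangles) in the 4 combinations of genotype and temperature, with bars at the means of 2 libraries. EBS1 footprints are near 0 in Col-0 at 37 °C and low in fust1 at 37 °C while its RNA circles move little on this scale, and ERDJ3A is low at 22 °C and high at 37 °C in both assays.

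CNX1 RNA was 113 and 98.3 CPM in Col-0 at 22 °C and 418 and 274 CPM at 37 °C. In fust1 it was 116 and 139 CPM at 22 °C and 440 and 394 CPM at 37 °C. Both heated pairs lay above both unheated pairs, with a log2 change of 1.71 ± 0.24 (SE) in each genotype (adjusted p = 3.22e-04 in Col-0 and 3.44e-04 in fust1). On library totals the RNA change was 0.70 and 0.78. CNX1 footprints did not follow in Col-0: they were 361 and 375 CPM at 22 °C and 308 and 440 CPM at 37 °C, so the groups overlapped (log2 change 0.02 ± 0.15, adjusted p = 0.9), and on library totals they were called lower, at -1.76. In fust1 they were 420 and 414 CPM at 22 °C and 510 and 637 CPM at 37 °C, a rise of 0.46 ± 0.15 (adjusted p = 0.0108) that became -1.21 on library totals. That call was lost without the fust1 37 °C Ribo-seq library of replicate 2, at 0.26. CNX1 TE fell by 1.69 ± 0.31 in Col-0 (adjusted p = 3.57e-04) and by 1.25 ± 0.30 in fust1 (adjusted p = 0.00522), and it stayed called under every alternative run.

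CNX2, the other calnexin, was not called in RNA on the TMM scale. Its RNA was 32.9 and 34.1 CPM in Col-0 at 22 °C and 44.6 and 32.0 CPM at 37 °C, which overlap, and 39.3 and 41.8 against 57.3 and 54.9 CPM in fust1, which do not. Neither change was called, at 0.19 ± 0.20 (adjusted p = 0.464) and 0.47 ± 0.20 (adjusted p = 0.0819), although the fust1 change was called, at 0.47, without either RNA-seq library of Col-0 at 37 °C. On library totals the RNA changes were -0.83, which was called, and -0.46, which was not. CNX2 footprints went from 47.0 and 48.7 to 61.7 and 62.1 CPM in Col-0, a log2 change of 0.37 ± 0.16 (adjusted p = 0.0407) that became -1.42 on library totals. The call was lost without any 1 of the 8 Ribo-seq libraries, at 0.30 to 0.40, and in 4 alternatives with all libraries, so that the rise was called in 1 of 14. In fust1 they were 56.2 and 54.4 CPM against 57.0 and 69.5 CPM, a change of 0.20 ± 0.15 that was not called (adjusted p = 0.251, and -1.47 on library totals). CNX2 TE changed by 0.18 ± 0.25 (adjusted p = 0.607) and -0.27 ± 0.25 (adjusted p = 0.444). On library totals these were -0.60, which was not called, and -1.02, which was. The ratio of CNX1 to CNX2 counts within a library needs no scaling between libraries, and only its change is read here, since its level also depends on gene length. In RNA this ratio was 3.43 and 2.88 in Col-0 at 22 °C and 9.38 and 8.57 at 37 °C, and 2.95 and 3.32 against 7.68 and 7.18 in fust1. In footprints it was 7.68 and 7.71 against 5.00 and 7.09 in Col-0, and 7.46 and 7.62 against 8.95 and 9.16 in fust1. RNA thus moved towards CNX1 in both genotypes, while footprints moved the other way in Col-0 and towards CNX1 in fust1. With 2 libraries against 2, an exact permutation test cannot give a p below 0.333, so the ratios carry no test.

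The 3 calreticulins differed among themselves. CRT1a RNA was 123 and 119 CPM in Col-0 at 22 °C and 167 and 101 CPM at 37 °C, and 134 and 140 against 180 and 170 CPM in fust1. Its footprints were 155 and 161 against 131 and 141 CPM in Col-0, and 199 and 213 against 162 and 187 CPM in fust1, lower with heat without overlap. None of its heat changes was called on the TMM scale, in RNA (0.14 ± 0.23, adjusted p = 0.655, and 0.35 ± 0.23, adjusted p = 0.257) or in footprints (-0.22 ± 0.14, adjusted p = 0.173, and -0.24 ± 0.13, adjusted p = 0.128). On library totals its RNA changes were -0.87 and -0.57 and its footprint changes -2.01 and -1.91, all called except RNA in fust1. On the TMM scale the fust1 footprint change was called, at -0.38, without Ribo-seq replicate 2 of fust1 at 37 °C. CRT1a TE changed by -0.36 ± 0.27 (adjusted p = 0.316) and -0.59 ± 0.27 (adjusted p = 0.115), and was called in 2 and 4 of 22 alternatives. Among these were library totals in both genotypes, at -1.14 and -1.34. It was also called in Col-0 without RNA-seq replicate 2 at 37 °C, at -0.68. In fust1 it was also called without either RNA-seq library of Col-0 at 37 °C, at -0.59. CRT1b, its close relative, was at 101 and 103 RNA CPM in Col-0 at 22 °C and 184 and 135 CPM at 37 °C. In fust1 it went from 102 and 114 to 234 and 209 CPM. No heated library overlapped an unheated one, and the log2 changes were 0.64 ± 0.21 (adjusted p = 0.0319) in Col-0, which turned to -0.38 on library totals, and 1.04 ± 0.21 (adjusted p = 0.00297) in fust1, which was 0.11 and not called on library totals. The Col-0 call was lost without RNA-seq replicate 1 or 2 of Col-0 at 22 °C, at 0.65 and 0.64, or replicate 1 of Col-0 at 37 °C, at 0.40.

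CRT1b footprints were 92.1 and 97.3 CPM in Col-0 at 22 °C and 81.0 and 87.9 CPM at 37 °C, a log2 change of -0.16 ± 0.14 that was not called (adjusted p = 0.326), although on library totals it was, at -1.96. In fust1 they were 106 and 110 CPM at 22 °C and 128 and 143 CPM at 37 °C, a change of 0.33 ± 0.13 (adjusted p = 0.0378) that became -1.35 on library totals. That call was lost without any 1 Ribo-seq library other than replicate 1 of fust1 at 37 °C, at 0.22 to 0.36, and in 4 other alternatives. CRT1b TE fell by 0.80 ± 0.24 in Col-0 (adjusted p = 0.0151) and by 0.71 ± 0.24 in fust1 (adjusted p = 0.0352), close to the threshold. In Col-0 the TE call was lost without RNA-seq replicate 1 at 37 °C, at -0.56, or Ribo-seq replicate 2 at 22 °C, at -0.76. In fust1 it was called in 13 of 22 alternatives, and was lost, at -0.74 to -0.62, without any 1 library of Col-0 or fust1 at 22 °C other than RNA-seq replicate 2 of fust1, and without RNA-seq or Ribo-seq replicate 1 of fust1 at 37 °C. The ratio of CRT1b to CRT1a counts was 0.823 and 0.867 in Col-0 RNA at 22 °C against 1.10 and 1.34 at 37 °C, and 0.761 and 0.813 against 1.3 and 1.23 in fust1. Footprint ratios barely moved in Col-0, from 0.593 and 0.606 to 0.618 and 0.626, and went from 0.533 and 0.519 to 0.792 and 0.766 in fust1. The labels do not say how reads shared between related CRT or CNX genes were counted, so their split is uncertain.

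CRT3, the calreticulin known for its part in EFR and BRI1 quality control, had RNA of 36.0 and 38.5 CPM in Col-0 at 22 °C and 75.3 and 96.7 CPM at 37 °C. In fust1 it was 57.2 and 39.1 CPM at 22 °C and 70.6 and 68.0 CPM at 37 °C. The rise in Col-0 was 1.21 ± 0.22 (adjusted p = 0.00176), or 0.16 on library totals, where it was not called. In fust1 the change of 0.53 ± 0.22 was not called (adjusted p = 0.0809) and turned to -0.38 on library totals. It was called without either RNA-seq library of Col-0 at 37 °C, at 0.53, or without replicate 1 of fust1 at 22 °C, at 0.84, and the difference between genotypes in the RNA heat response was not called either (-0.68 ± 0.31, adjusted p = 0.536). CRT3 footprints went from 27.3 and 24.9 to 34.6 and 38.6 CPM in Col-0 and from 26.0 and 21.4 to 41.1 and 46.9 CPM in fust1. These were log2 changes of 0.49 ± 0.18 (adjusted p = 0.0212) and 0.89 ± 0.17 (adjusted p = 4.16e-05), which became -1.3 and -0.77 on library totals. The Col-0 footprint call was lost without Ribo-seq replicate 2 of Col-0 at 22 °C, at 0.43, or replicate 1 or 2 of Col-0 at 37 °C, at 0.49 and 0.34. CRT3 TE changed by -0.72 ± 0.29 in Col-0 (adjusted p = 0.058, called in 9 of 22 alternatives) and by 0.37 ± 0.28 in fust1 (adjusted p = 0.353). On library totals these were -1.46, which was called, and -0.39, which was not. The ratio of CRT1a to CRT3 footprints was 5.70 and 6.45 at 22 °C and 3.78 and 3.64 at 37 °C in Col-0, and 7.65 and 9.92 against 3.94 and 3.99 in fust1, so footprints moved towards CRT3 in both.

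**Figure D2:**
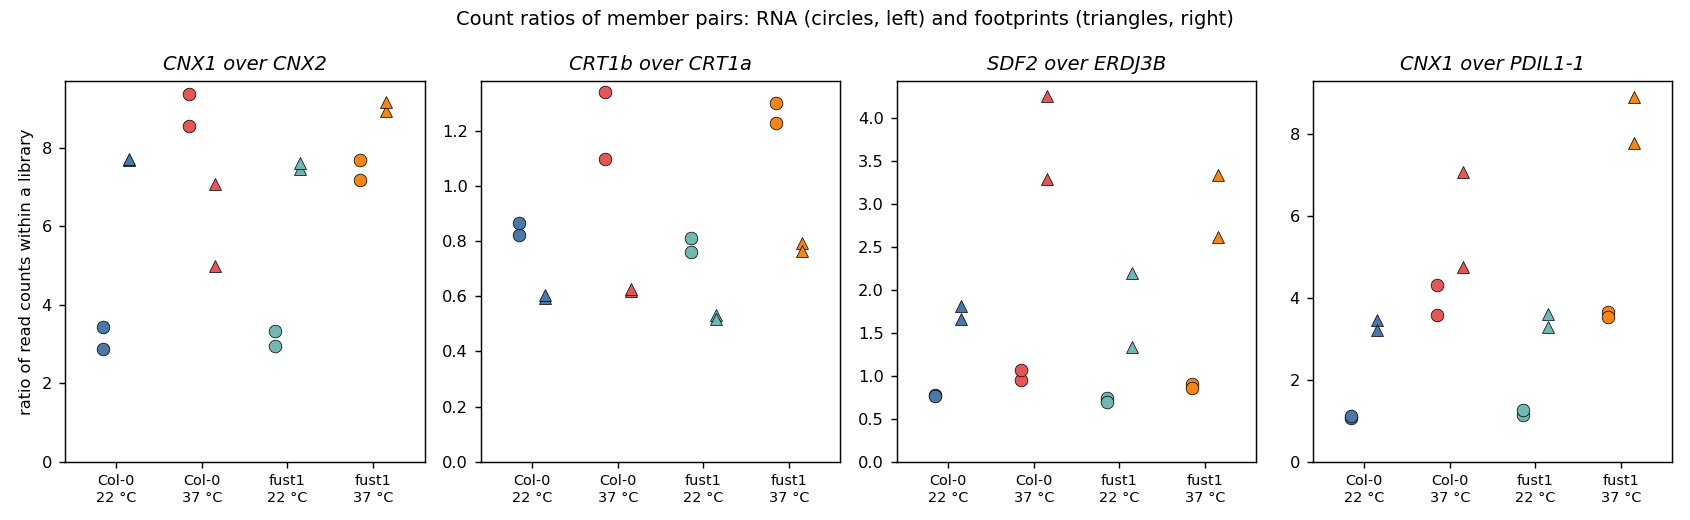
Ratio of read counts within each library for 4 pairs of the genes, in RNA (circles) and footprints (triangles), by genotype and temperature. In RNA the CNX1 to CNX2 ratio is 2.88 to 3.43 in every library at 22 °C and 7.18 to 9.38 at 37 °C, and the CRT1b to CRT1a ratio in footprints is higher at 37 °C in fust1 than in Col-0.

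EBS1 showed the widest gap between the assays. Its RNA was 61.1 and 57.0 CPM in Col-0 at 22 °C and 64.8 and 64.1 CPM at 37 °C, and 77.0 and 66.1 against 71.5 and 59.5 CPM in fust1. Heated libraries were slightly higher in Col-0, without overlap, and overlapped the unheated ones in fust1. Neither RNA change was called on the TMM scale, at 0.13 ± 0.18 (adjusted p = 0.614) and -0.13 ± 0.18 (adjusted p = 0.615). On library totals both were called lower, at -0.91 and -1.04, beside footprint changes of -9.22 and -5.31 on that scale. Its footprints were 84.7 and 84.8 CPM in Col-0 at 22 °C, from 2044 and 1640 counts, and 0.979 and 0 CPM at 37 °C, from 3 counts and 0. In fust1 they were 86.1 and 78.4 CPM at 22 °C, from 2158 and 2140 counts, and 4.54 and 8.20 CPM at 37 °C, from 25 and 60 counts. Both heated pairs were far below the unheated pairs, and the heated fust1 libraries were both above the heated Col-0 libraries. Summed over the 2 libraries and scaled by TMM, EBS1 footprints were 179-fold lower at 37 °C in Col-0 (95% exact interval 61.3 to 870) and 12.4-fold lower in fust1 (9.99 to 15.5). These intervals cover counting error only.

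The fitted log2 changes of EBS1 footprints were -7.46 ± 0.40 in Col-0 (adjusted p = 3.89e-15) and -3.65 ± 0.22 in fust1 (adjusted p = 7.40e-14), and 1.64% and 3.33% of all genes tested lay below them. EBS1 TE was lower by -7.58 ± 0.52 in Col-0 (adjusted p = 2.36e-08) and -3.53 ± 0.34 in fust1 (adjusted p = 1.93e-06). All 4 calls were kept in every alternative run. The fit to Col-0 rests on 3 counts in 1 library: without Ribo-seq replicate 1 of Col-0 at 37 °C the fitted footprint change was -13.39, which depends on the prior count. Against another member, the ratio of EBS1 to CNX1 footprints was 0.235 and 0.226 in Col-0 at 22 °C and 0.00317 and 0 at 37 °C, and 0.205 and 0.189 against 0.0089 and 0.0129 in fust1. The same ratio in RNA went from 0.541 and 0.580 to 0.155 and 0.234 in Col-0, and from 0.664 and 0.476 to 0.162 and 0.151 in fust1, where CNX1 RNA rose.

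PDIL1-1, an isomerase that makes and rearranges disulfide bonds, was not called in RNA and fell in footprints. RNA was 107 and 88.5 CPM against 96.9 and 76.3 CPM with heat in Col-0, and 101 and 110 against 120 and 112 CPM in fust1. These changes, -0.17 ± 0.20 (adjusted p = 0.523) and 0.14 ± 0.20 (adjusted p = 0.62), were not called on the TMM scale, and on library totals they were called, at -1.19 and -0.79. Footprints fell from 104 and 117 to 65.0 and 62.1 CPM in Col-0 and from 116 and 125 to 65.6 and 71.4 CPM in fust1, with no overlap. The falls were -0.80 ± 0.15 (adjusted p = 3.49e-05) and -0.81 ± 0.14 (adjusted p = 1.40e-05), and both were called in every alternative run. TE was lower by -0.95 ± 0.24 in fust1 (adjusted p = 0.00651). In Col-0 it changed by -0.63 ± 0.24 (adjusted p = 0.0509), just short of a call, and was called in 7 of 22 alternatives, among them without RNA-seq replicate 1 of Col-0 at 22 °C or replicate 2 of Col-0 at 37 °C, at -0.79 each, and without either Ribo-seq library of fust1 at 37 °C, at -0.69. The ratio of CNX1 to PDIL1-1 footprints was 3.22 to 3.62 in the 4 libraries at 22 °C, 4.75 and 7.09 in Col-0 at 37 °C, and 7.78 and 8.91 in fust1 at 37 °C.

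SDF2, which sits in an ER complex with ERDJ3B and BiP, was 1 of 2 genes of the set called higher in RNA and footprints of both genotypes with a log2 change above 1 on the TMM scale, the other being ERDJ3A, although SDF2 footprints turned on library totals. SDF2 RNA was 27.3 and 27.2 CPM in Col-0 at 22 °C and 102 and 72.4 CPM at 37 °C, and 25.9 and 31.0 against 103 and 96.3 CPM in fust1. Footprints were 16.2 and 14.4 against 45.1 and 51.7 CPM in Col-0, and 18.7 and 15.5 against 46.5 and 53.7 CPM in fust1. RNA rose by 1.68 ± 0.21 (adjusted p = 1.33e-04) and 1.81 ± 0.21 (adjusted p = 8.62e-05), or by 0.66 and 0.88 on library totals. Footprints changed by 1.66 ± 0.18 (adjusted p = 7.68e-09) and 1.55 ± 0.17 (adjusted p = 9.62e-09), which became -0.13 and -0.12 on library totals, neither called. SDF2 TE changed by -0.01 ± 0.28 (adjusted p = 0.979) and -0.26 ± 0.27 (adjusted p = 0.515). On library totals these were -0.78, which was not called, and -0.99, which was.

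ERDJ3B, the partner of SDF2, rose in RNA of both genotypes on the TMM scale. Its RNA was 35.0 and 35.6 CPM in Col-0 at 22 °C and 107 and 67.7 CPM at 37 °C, and 34.9 and 44.9 against 114 and 112 CPM in fust1. The RNA changes were 1.31 ± 0.23 (adjusted p = 0.00153) and 1.50 ± 0.23 (adjusted p = 6.72e-04), or 0.29 and 0.57 on library totals, where neither was called. Footprints were 9.74 and 7.96 against 13.7 and 12.2 CPM in Col-0, a change of 0.54 ± 0.26 that was not called (adjusted p = 0.0709, and -1.25 on library totals). In fust1 they were 8.50 and 11.6 against 17.8 and 16.1 CPM, a change of 0.75 ± 0.22 (adjusted p = 0.00443) that became -0.94 on library totals and was not called without Ribo-seq replicate 1 of fust1 at 22 °C, at 0.54. ERDJ3B TE changed by -0.76 ± 0.34 (adjusted p = 0.0856) and -0.75 ± 0.32 (adjusted p = 0.0865). On library totals it was called in both genotypes, at -1.54 and -1.50. It was also called in Col-0 without RNA-seq replicate 2 at 37 °C, at -1.05. In fust1 it was also called without either RNA-seq library of Col-0 at 37 °C, at -0.75. The ratio of SDF2 to ERDJ3B footprints was 1.66 and 1.81 at 22 °C and 3.29 and 4.25 at 37 °C in Col-0, and 2.2 and 1.34 against 2.61 and 3.33 in fust1. In RNA it was 0.781 and 0.764 against 0.953 and 1.07, and 0.741 and 0.691 against 0.903 and 0.858, so SDF2 was higher against its partner with heat in both assays, without overlap between temperatures.

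ERDJ3A, an ER J-domain protein also called TMS1 and known for the thermotolerance of pollen, rose in every comparison of heat. Its RNA was 1.76 and 1.22 CPM in Col-0 at 22 °C, from 23 and 22 counts, and 1170 and 1240 CPM at 37 °C, from 9692 and 8010 counts. In fust1 it was 3.42 and 2.24 CPM, from 45 and 32 counts, and 861 and 785 CPM, from 6636 and 6346 counts. Footprints were 2.11 and 1.91 CPM against 1670 and 1470 CPM in Col-0, and 3.63 and 3.04 against 1550 and 1380 CPM in fust1. All heated libraries lay far above all unheated ones. Fitted folds were 812 in RNA and 776 in footprints of Col-0 (log2 9.67 ± 0.35 and 9.60 ± 0.21, adjusted p = 1.11e-08 and 5.02e-24). In fust1 they were 291 and 439 (log2 8.18 ± 0.33 and 8.78 ± 0.20, adjusted p = 2.27e-08 and 9.45e-24). On library totals the log2 changes were 8.63 and 7.80 in Col-0 and 7.28 and 7.10 in fust1. ERDJ3A TE changed by -0.07 ± 0.33 (adjusted p = 0.887) and 0.59 ± 0.31 (adjusted p = 0.168). On library totals these were -0.83, which was called, and -0.17, which was not.

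The 10 genes made up 0.0852% of the counts in both RNA libraries of Col-0 at 22 °C and 0.173% and 0.136% at 37 °C, of which ERDJ3A was 0.276% and 0.203% at 22 °C and 48.1% and 57.4% at 37 °C. The other 9 genes took 0.085% of the counts at 22 °C in each of these libraries and 0.0895% and 0.0579% at 37 °C. In Ribo-seq of Col-0 the 10 genes took 0.158% and 0.167% at 22 °C and 0.118% and 0.126% at 37 °C, and the other 9 genes 0.158% and 0.166% against 0.0362% and 0.0476%. In fust1 the other 9 genes took 0.187% and 0.204% of footprints at 22 °C and 0.0581% and 0.0757% at 37 °C. As a share of all footprints, the set without ERDJ3A was therefore lower with heat in both genotypes. So was the median of all genes on library totals, as given above. The share was higher in both fust1 libraries than in both Col-0 libraries at 22 °C as well as at 37 °C.

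**Figure D3:**
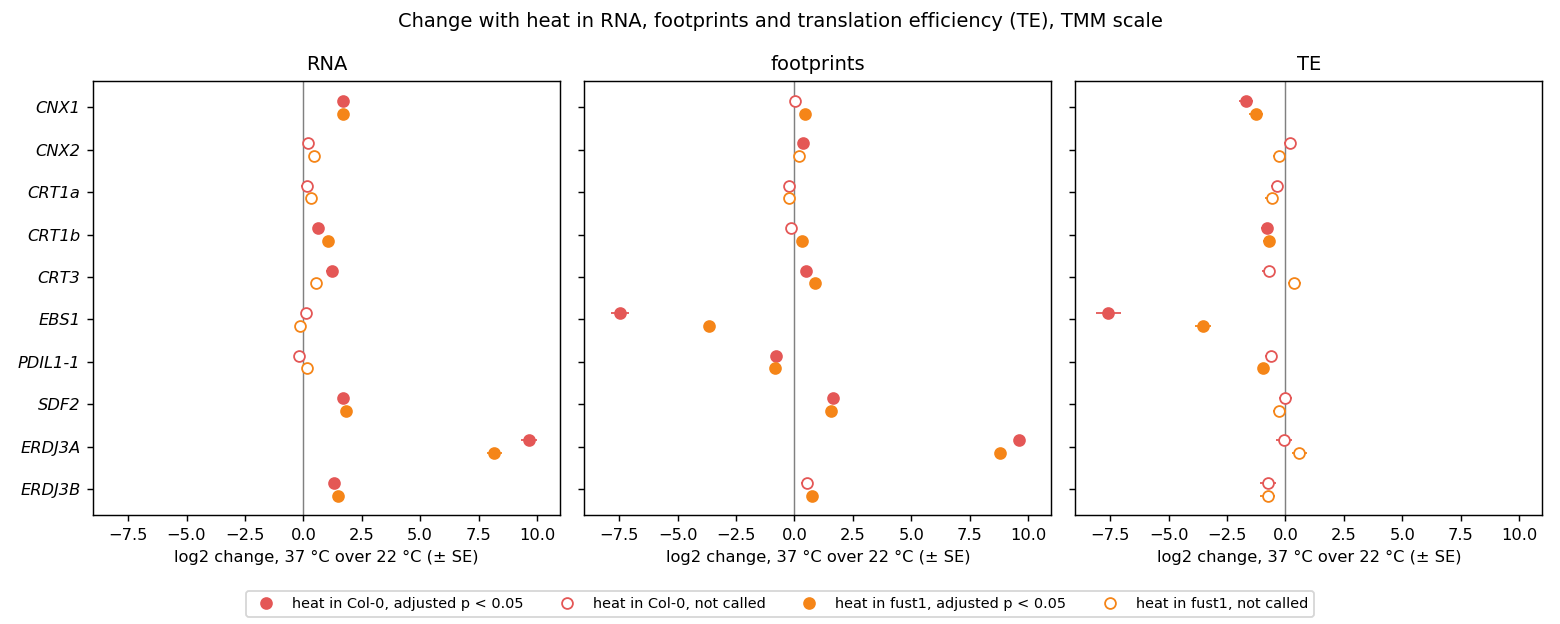
Log2 change with heat (37 °C over 22 °C, TMM scale, ± SE) of the 10 genes in RNA, footprints and TE, for Col-0 (red) and fust1 (orange), with filled points where the adjusted p was under 0.05. EBS1 is near 0 in RNA on this scale and at -7.46 and -3.65 in footprints, and ERDJ3A lies between 8.18 and 9.67 in both assays.

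Between genotypes, RNA of 0 of the 10 genes was called at 22 °C, where 0.0569% of all genes were, at 37 °C (0.0517%) or for heat by genotype, the heat change in fust1 minus that in Col-0 (0.031%). At an unadjusted p under 0.05 these comparisons held 1, 3 and 1 of the 10 genes, and DESeq2 called 0, 0 and 1. Without RNA-seq replicate 1 of Col-0 at 37 °C, CNX2 and CRT1a were called higher in fust1 at 37 °C, at 0.81 and 0.80. The gene called by DESeq2 was ERDJ3A, whose RNA heat change was lower in fust1 by -1.48 ± 0.40 (edgeR adjusted p = 0.276, and 0.025 in DESeq2). Its RNA was higher in fust1 at 22 °C and lower at 37 °C, without overlap, at log2 0.93 ± 0.32 (adjusted p = 0.961) and -0.55 ± 0.23 (adjusted p = 0.307). Footprints of 0 of the 10 genes were called at 22 °C (4.38% of all genes), with 2 at an unadjusted p under 0.05 and 1 called by DESeq2. Nearest to the threshold was ERDJ3A, at 0.72 ± 0.22 (adjusted p = 0.0538), followed by CRT1a, at 0.38 ± 0.13 (adjusted p = 0.1), and both were called without either Ribo-seq library of fust1 at 37 °C, at 0.75 and 0.41. TE was called for 0 genes at 22 °C by edgeR and DESeq2 (0.00561% of all genes), and 0 were at an unadjusted p under 0.05.

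At 37 °C, footprints of 3 genes were higher in fust1 than in Col-0 and of none lower. Of all 18445 genes tested, 1127 were called higher and 853 lower, 10.7% in either direction. The median log2 difference of the 10 genes was 0.31, beside 0.06 for all genes. The 3 genes called were EBS1 (3.77 ± 0.61, adjusted p = 1.94e-04), CRT1b (0.68 ± 0.14, adjusted p = 0.00254) and CNX1 (0.62 ± 0.15, adjusted p = 0.00986). CRT1b stood at 81.0 and 87.9 CPM in heated Col-0 and 128 and 143 CPM in heated fust1, and it was called in all 14 alternatives. CNX1 stood at 308 and 440 against 510 and 637 CPM. Its difference was not called without Ribo-seq replicate 1 of Col-0 at 37 °C, at 0.46, or replicate 2 of fust1 at 37 °C, at 0.52, and was 0.96 without replicate 2 of Col-0 at 37 °C. CRT1a, at 0.36 ± 0.14 (adjusted p = 0.0952), was called without replicate 1 of fust1 at 37 °C, at 0.53, and on library totals, at 0.57. On library totals 4 of the 10 genes were called, and 2175 of all genes. EBS1 footprints, summed over libraries, were 14.0-fold higher in fust1 at 37 °C (95% exact interval 4.64 to 69.4, counting error only), from 85 counts against 3.

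The difference between the heat responses was called in footprints for 2 of the 10 genes, where 8.7% of all genes were called. EBS1 footprints fell less in fust1, by a log2 difference of 3.81 ± 0.65 (adjusted p = 4.39e-04) that was called in all 13 alternatives, at 2.81 to 9.71. The lower end came without Ribo-seq replicate 2 of Col-0 at 37 °C, which held no EBS1 count, and the upper end without replicate 1, which held all 3. ERDJ3A footprints rose less in fust1, by -0.82 ± 0.26 (adjusted p = 0.0434). This call was lost on library totals, at -0.70, and without 6 of the Ribo-seq libraries: both of Col-0 at 22 °C (-0.90 and -0.76), both of Col-0 at 37 °C (-0.68 and -0.88), replicate 1 of fust1 at 22 °C (-0.69) and replicate 2 of fust1 at 37 °C (-0.70). CNX1 and CRT1b were not called here, at 0.44 ± 0.22 (adjusted p = 0.221) and 0.49 ± 0.20 (adjusted p = 0.117), although CNX1 was called at 0.75 without Ribo-seq replicate 2 of Col-0 at 37 °C.

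In TE, EBS1 was the 1 gene of the 10 called for genotype at 37 °C (3.73 ± 0.65, adjusted p = 0.0145, with 1.32% of all genes called) and for heat by genotype (4.05 ± 0.74, adjusted p = 0.0215, with 1.09% called). The first was lost without Ribo-seq replicate 2 of fust1 at 37 °C, at 3.28, and in a fit to the compared groups only, at 3.68. The second was lost without 6 libraries: both RNA-seq libraries of Col-0 at 22 °C (4.13 and 3.99), Ribo-seq replicate 1 of Col-0 at 22 °C (4.05), both Ribo-seq libraries of fust1 at 22 °C (4.11 and 3.98) and Ribo-seq replicate 2 of fust1 at 37 °C (3.57). Without Ribo-seq replicate 1 of Col-0 at 37 °C they were 9.48 and 9.78, with no EBS1 count left in that group.

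The gene whose pattern over the 16 libraries lay nearest to each member was found as the smallest root-mean-square (RMS) difference of centred log2 CPM among all genes tested in both assays. For CNX1 it was an ER-type HSP70 gene, AT4G16660, at an RMS of 0.15, where the median gene was at 0.94. SDF2 was nearest to P58IPK, an ER J-domain co-chaperone, at 0.16 against a median of 1.11. ERDJ3A was nearest to Fes1A, an HSP70 nucleotide exchange factor, at 0.31 against 4.64, and EBS1 to FIP1[V], a polyadenylation factor, at 0.59 against 2.33. CNX2 lay nearest to Hop1, an HSP90 co-chaperone, and CRT3 to APP1, both at 0.12, CRT1a to AT5G54750 at 0.12, and ERDJ3B to AT1G76405 at 0.18. CRT1b and PDIL1-1 lay nearest, both at 0.12, to 1 copy each of multigene families with near-identical members, an elongation factor 1-alpha and a histone H4 gene, whose counts are uncertain. Among the 10 genes themselves, CNX2 and CRT1a were 0.22 apart and CNX1 and ERDJ3B 0.27, whereas the nearest fellow member of EBS1 was PDIL1-1 at 2.07 and that of ERDJ3A was SDF2 at 3.67.

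Around the 10 genes, the other ER chaperones included BIP1 and BIP2, the constitutive HSP70s of the ER, and HSP90.7, the ER HSP90. Of 8 tested, RNA was called higher for 5 in Col-0 and 6 in fust1 and lower for none, with medians of 1.45 and 1.39. Footprints were called higher for 4 and lower for 2 in Col-0, and higher for 5 and lower for none in fust1, with medians of 1.40 and 0.89. On library totals the splits were 2 higher and 2 lower for RNA in Col-0, 3 and 1 in fust1, and 1 and 3, and 2 and 5, for footprints. The shares of all genes called higher or lower on the TMM scale, given above for the 10 genes, serve as background for this list and those below. On library totals the background is the counts of all genes called in either direction, also given above. BIP1 rose by 3.53 ± 0.24 in RNA (adjusted p = 1.01e-06) and 2.89 ± 0.15 in footprints (adjusted p = 5.47e-16) of Col-0, and these were 2.51 and 1.09 on library totals. BIP2 rose by 2.61 ± 0.32 and 2.12 ± 0.15 in Col-0, with the footprint change at 0.33 and not called on library totals. Reads of BIP1 and BIP2, which are near-identical, could have been split between them. HSP90.7 was at 1.3 ± 0.32 in RNA of Col-0, which was not called without RNA-seq replicate 1 or 2 of Col-0 at 22 °C, at 1.46 and 1.17, or replicate 1 of Col-0 at 37 °C, at 0.72, and on library totals, at 0.30. Its footprints were at 1.56 ± 0.14, which became -0.24 on library totals. BIP3, the stress-induced BiP, was not called in any heat comparison on the TMM scale, at -2.50 ± 1.75 (adjusted p = 0.28) and 0.11 ± 1.09 (adjusted p = 0.945) in RNA, and 1.24 ± 0.60 (adjusted p = 0.0774) and 0.46 ± 0.43 (adjusted p = 0.375) in footprints, which became -0.54 and -1.21 on library totals. With 1 library left out, BIP3 RNA lay between -5.41 and -1.45 in Col-0 and between -1.40 and 1.66 in fust1, and its Col-0 footprint change was called, at 1.81, without Ribo-seq replicate 1 of Col-0 at 22 °C.

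The 10 genes of ER-associated degradation, which removes proteins that fail to fold, had 6 called higher and none lower in RNA of either genotype, with medians of 0.90 and 1.00, and 6 higher in footprints of either genotype, with 2 lower in Col-0 and 1 lower in fust1. On library totals these splits turned to 3 and 3 for RNA in each genotype, 3 and 6 for footprints in Col-0 and 2 and 4 in fust1. DER1, a derlin of the ER membrane, rose most: by 5.00 ± 0.23 in RNA and 5.08 ± 0.16 in footprints of Col-0, and by 4.54 ± 0.22 and 4.59 ± 0.15 in fust1. The largest falls in footprints were those of EBS5 in Col-0, at -1.95 ± 0.25, and HRD1A in fust1, at -1.04 ± 0.21.

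Genes that act on the glycan itself were mostly called lower in footprints. All 6 glycan trimming genes, the glucosidases and mannosidases, were called lower in Col-0 (median -2.74) and 4 of 6 in fust1 (median -1.53). In RNA 1 rose and 1 fell in Col-0 and 1 rose in fust1, with medians of 0.09 and 0.01. On library totals RNA was called lower for 5 and 4 of them and higher for none, with medians of -0.94 and -0.92, and footprints lower for 6 and 5, with medians of -4.53 and -3.19. The trimming glucosidase gene GCS1 was at -2.21 ± 0.27 in footprints of fust1. MNS5, a mannosidase gene, had 32 footprint counts in Col-0 at 22 °C and 0 at 37 °C, at least 1.56-fold lower against a floor of 3 counts over the group. Its footprint call was lost without any 1 of the Ribo-seq libraries other than those of fust1 at 37 °C, with fitted changes of -6.56 to -6.22. Of 9 oligosaccharyltransferase genes tested, whose complex attaches the glycan, footprints were called lower for 6 and higher for 1 in Col-0, and lower for 7 and higher for 1 in fust1, with medians of -0.94 and -1.05. Their RNA was called lower for 3 and 2 and higher for 1 and 1, with medians of -0.38 and -0.20. On library totals RNA was called lower for 8 and 7 of the 9 and higher for none, with medians of -1.41 and -1.12, and footprints lower for all 9 in each genotype. OST1B footprints fell by 3.80 ± 0.29 and 2.35 ± 0.21. The gene that rose was DAD2 in footprints, by 0.76 ± 0.20 and 0.51 ± 0.18, which became -1.03 and -1.17 on library totals, and the fust1 change was not called without either Ribo-seq library of fust1 at 22 °C, at 0.50 and 0.52, or replicate 2 of fust1 at 37 °C, at 0.42.

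Of the 14 other disulfide isomerases and ER oxidases, footprints were called higher for 5 and lower for 6 in Col-0, and higher for 3 and lower for 6 in fust1, with medians of -0.35 and -0.38. Their RNA was called higher for 2 in each genotype and lower for 1 in fust1, with medians of -0.08 and 0.07. On library totals footprints were called lower for 12 and higher for none in each genotype, and RNA higher for 1 in each and lower for 9 and 8. PDIL1-3 footprints fell by 2.38 ± 0.21 and 1.6 ± 0.17, while PDIL2-2 RNA rose by 2.55 ± 0.28 and 2.52 ± 0.28. Of the 7 ER stress sensors and their processing genes, RNA was called higher for 3 and lower for 1 in Col-0 and higher for 2 and lower for 1 in fust1 (medians 0.52 and -0.08), and footprints higher for 2 and lower for 3 in each (medians -0.19 and -0.43). On library totals the splits were 1 and 4, and 2 and 5, for RNA and 0 and 5, and 1 and 6, for footprints. IRE1B, a membrane sensor that splices mRNA, fell in RNA by 1.70 ± 0.35 in Col-0 (adjusted p = 0.00369) and by 1.24 ± 0.34 in fust1 (adjusted p = 0.0156), where the call was lost without RNA-seq replicate 1 of fust1 at 22 °C, at -1.22, or at 37 °C, at -1.06. In the same list, BZIP28, a membrane-bound transcription factor, rose by 3.03 ± 0.23 in RNA of Col-0 and 2.92 ± 0.23 in fust1. Its footprints changed by 1.47 ± 0.18, which became -0.32 on library totals, and by 2.41 ± 0.17. S1P, the protease gene of the same route, had 104 footprint counts in Col-0 at 22 °C and 0 at 37 °C, at least 5.06-fold lower against the same floor. The 3 receptor genes EFR, FLS2 and BRI1 had called falls in footprints of both genotypes (medians -3.91 and -2.15), and in RNA 2 fell in Col-0 and 3 in fust1 (medians -2.99 and -2.36). BRI1 footprints fell by 4.74 ± 0.23 and 2.95 ± 0.17, and EFR RNA fell by 3.43 ± 0.59 in Col-0.

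**Figure D4:**
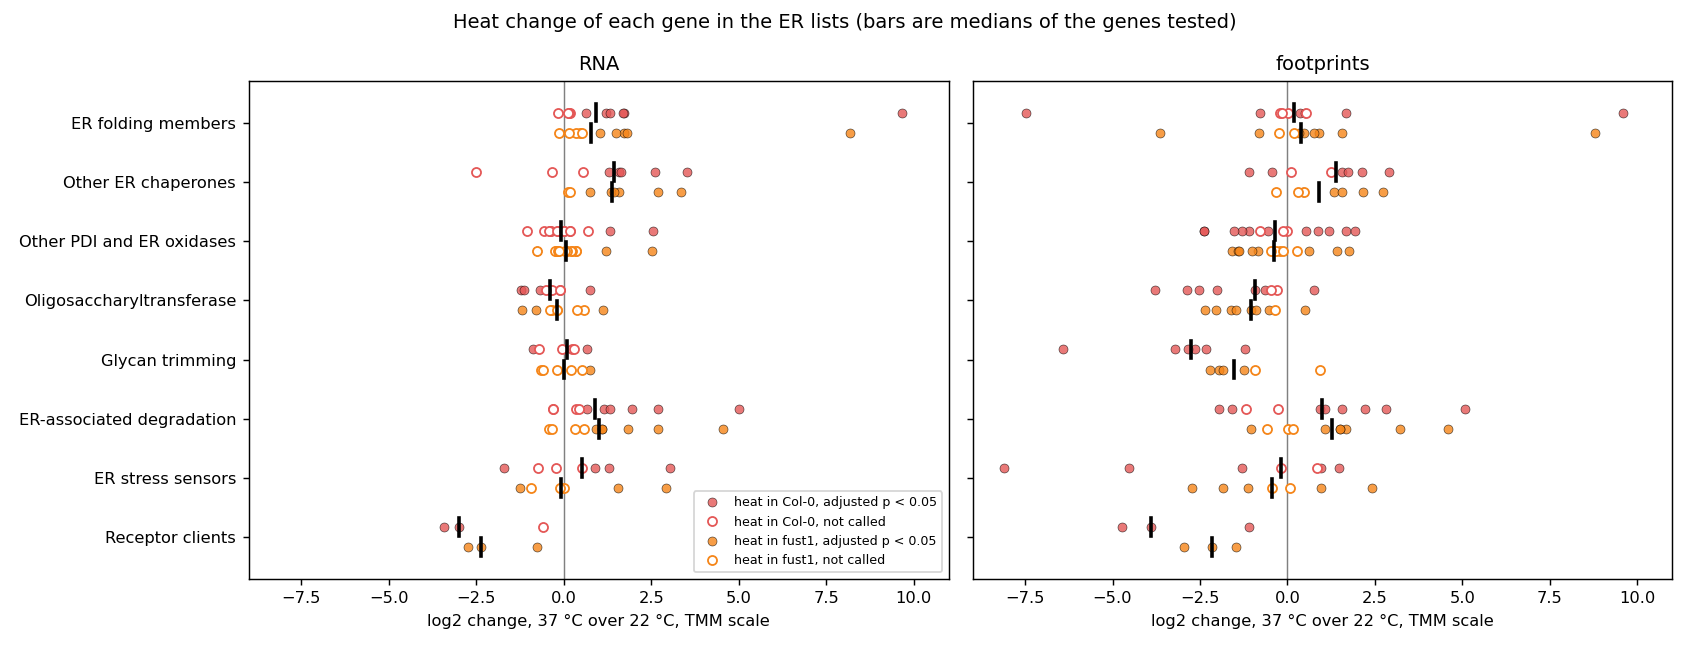
Log2 change with heat (37 °C over 22 °C, TMM scale) of each gene tested in 8 lists of ER genes, for RNA and footprints in Col-0 (red) and fust1 (orange), with bars at the list medians and filled points where the adjusted p was under 0.05. All 6 glycan trimming genes lie below 0 in Col-0 footprints, with a median of -2.74, while their RNA median is 0.09 on this scale and -0.94 on library totals.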

How the data were processed

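Read counts per gene, whole numbers without normalization, were the values the authors deposited for poly(A) RNA and ribosome footprints. Tools in the submitters' processing notes are STAR 2.7.3a, Bowtie 1.0.1, featureCounts 1.6.2 and fastp 0.19.7, with the TAIR10 build. Not given in the sources used here are the counted feature, the strand setting and the treatment of multi-mapped reads. Genes passing edgeR's filterByExpr (minimum count 10) numbered 19340 for RNA, 18445 for footprints and 17816 for both. Counts were scaled by TMM within each assay and tested with edgeR 4.0.16 (quasi-likelihood, robust) in R 4.3.3, over all 8 libraries of an assay or all 16 for TE, in 15 comparisons, with Benjamini-Hochberg adjustment over all genes tested. Each standard error was the size of the log2 change divided by the root of its F statistic. Where a group had no count, folds were taken against 3 counts over that group.

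The members, the gene lists and the naming rule were chosen with earlier results of these data known. Named were the members, BIP1, BIP2, BIP3 and HSP90.7, from the largest called rise and fall of each list per heat comparison of RNA and footprints, the nearest gene per member, tissue checks, HSP101 and SQN. On simulated data for heat in Col-0, the share of 4-fold changed genes recovered was 66% for RNA, 79% for footprints and 50% for TE, and 13%, 47% and 9% for 2-fold changes, with 13.2%, 5.26% and 13.2% false calls. Only 100 genes were changed at each fold and all others were held level. Far more genes were called in the real heat comparisons, so these rates need not hold there. The 2 replicates of each group differed by more than sampling noise (chi-square per degree of freedom 4.81 to 27.2). Alternatives were RLE scaling, library totals, no low-count filter, DESeq2 1.42.0, a replicate block, the compared groups only, and each library left out.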

Additional observations from a re-analysis of the deposited data

Results flagged for a closer look

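The heat change of EBS1 footprints differed between genotypes in the interaction test: it was higher in fust1 by 3.81 on the log2 scale (SE 0.65, adjusted p = 4.39e-04, 2.30e-08 to 0.0131 over its alternatives). The same difference in EBS1 TE was 4.05 (SE 0.74, adjusted p = 0.0215, 0.00157 to 0.065 over its alternatives). Both heated fust1 libraries, at 25 and 60 counts, lay above both heated Col-0 libraries, at 3 and 0 counts. The heat change of ERDJ3A footprints differed in the other direction, at -0.82 (SE 0.26, adjusted p = 0.0434, 0.0231 to 0.187 over its alternatives).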

How the results depend on the processing

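Calls for ERDJ3A RNA and footprints with heat, EBS1 footprints and TE with heat, CNX1 TE, CNX1 and SDF2 RNA, and PDIL1-1 footprints kept their direction and call in both genotypes under every alternative run. Scaling to library totals, through its shift of all genes, turned the direction of 25 named changes called on that scale or on TMM. For RNA in Col-0 these were CNX2 at -0.83, CRT1a at -0.87, CRT1b at -0.38, EBS1 at -0.91, DAD1 at -0.27 and MNS5 at -0.38, and for RNA in fust1 PDIL1-1 at -0.79 and PSL4 at -0.18. For footprints in Col-0 they were CNX1 at -1.76, CNX2 at -1.42, CRT3 at -1.30, SDF2 at -0.13, ERDJ3B at -1.25, DAD2 at -1.03, BZIP28 at -0.32 and HSP90.7 at -0.24. For footprints in fust1 they were CNX1 at -1.21, CNX2 at -1.47, CRT1b at -1.35, CRT3 at -0.77, SDF2 at -0.12, ERDJ3B at -0.94, DAD2 at -1.17, BIP3 at -1.21 and HSP90.7 at -0.36. Changes that turned but were called on neither scale, such as CRT3 RNA in fust1 at -0.38, are not listed.

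Of the 10 members, TE with heat in Col-0 called 3, and 5 with RLE scaling, 5 with DESeq2 and 8 on library totals. In fust1 it called 4, and 8 on library totals. Of all 17816 genes tested, TE with heat called 6593 in Col-0 and 5038 in fust1, and 6782 and 6571 on library totals. RNA heat by genotype called 0, and 1 with DESeq2. Footprints for genotype at 22 °C called 0, and 1 each with DESeq2, library totals, no low-count filter, the replicate block and the compared groups only. Footprints for heat by genotype called 2, and 1 on library totals. TE for genotype at 37 °C called 1, and 0 with the compared groups only. Apart from the shift of all genes, the cause was not tested. With 1 library left out, where the lone library is assumed to vary like the others, member counts ran from 5 to 6 for RNA heat in Col-0 and 5 to 7 in fust1, 4 to 5 and 6 to 8 for footprints, and 2 to 6 and 3 to 6 for TE. For genotype at 22 °C they ran from 0 to 0 for RNA, 0 to 2 for footprints and 0 to 0 for TE, for genotype at 37 °C from 0 to 2, 2 to 4 and 0 to 1, and for heat by genotype from 0 to 0, 1 to 2 and 0 to 1.

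Over all genes, RNA heat calls numbered 7216 (Col-0) and 7106 (fust1), and 12155 and 10831 on library totals. RNA genotype at 22 °C called 11 genes, and 87 with DESeq2, 20 on library totals, 57 without the filter, 102 with the compared groups only and 4 with the block. At 37 °C it called 10, and 318, 1, 195, 1 and 1 in the same order. RNA heat by genotype called 6, and 186 with DESeq2, 1 on library totals, 122 without the filter and 0 with the block. Footprints for genotype at 22 °C called 808, and 1926 with the compared groups only. TE for genotype at 22 °C called 1, and 17 with DESeq2 and 11 with the compared groups only. TE for genotype at 37 °C called 235, and 503 with DESeq2, 8 with the compared groups only and 87 with the block. TE heat by genotype called 195, and 702 with DESeq2 and 63 with the block. Same-numbered libraries deviated together in no regular way (correlations of -0.291 to 0.227). With 2 libraries per group these values cannot settle whether the numbers pair samples, and the labels do not say. The Ribo-seq libraries of Col-0 at 37 °C held 6271023 and 6175906 counts, and the EBS1 values there rest on 3 of them.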
